A study of Mus musculus with 16 samples.

Results

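The genes described here are 10 that mark lipid-associated macrophages, the cells that take up lipid and cell debris in fatty liver. They are Trem2, Gpnmb, Spp1, Lpl, Cd36, Itgax, Mmp12, Fabp5, Cd63 and Cd9, a named list that used no value of these arrays, with probes found through the accession of each probe. All 10 passed the filter on dim probes, among 15247 named genes and 25790 features in all. None of the 10 passed the test between miR-185-inh and ctrl-inh livers. Within each group some of the genes shared their variation among livers. Gpnmb and Mmp12 were among the most variable features on the arrays and varied together, Mmp12 with some spots not well above background. Trem2, Itgax, Cd36 and Cd63 varied with them in part. For Trem2, Itgax and Cd63 the relation to Gpnmb was weaker without the 2 livers farthest from its median. Genes of other liver cells also varied with Gpnmb, the endothelial ones more closely in ctrl-inh than in miR-185-inh livers.

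In a liver loaded with lipid, monocyte-derived macrophages gather around dying and fat-filled hepatocytes and switch on a program of lipid uptake, lysosomal breakdown and matrix remodelling. TREM2 is the receptor by which these cells sense lipids and apolipoproteins, and it signals through the adaptor TYROBP (DAP12) and the kinase SYK. Several genes of the program are not macrophage genes alone: Cd36, Lpl and Fabp5 are also expressed by hepatocytes or other liver cells, Spp1 by bile duct cells, Itgax by dendritic cells, and Cd63 and Cd9 in nearly every cell type.

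Liver RNA was measured on 16 one-colour Agilent arrays, 8 of miR-185-inh and 8 of ctrl-inh livers. All mice were male ApoE knockouts, which lack apolipoprotein E and build up cholesterol-rich lipoproteins, with a stated age of 8 weeks, fed a high-fat diet, and the livers were taken after 8 weeks. The miR-185-inh mice received a lentivirus that encodes an antisense RNA against the microRNA miR-185, and the ctrl-inh mice a control inhibitor. The series sets out to find genes of bile acid metabolism under miR-185, and the macrophage genes are not named in its design. Controls and treated mice alike are knockouts of Apoe, whose product is a ligand of TREM2, so the comparison is within one genotype. The Apoe probe still gave spots well above background on every array, and what it detects was not tested. No arrays of untreated, wild-type or chow-fed livers were used here, and the level of miR-185 itself was not analysed here.

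The numbers in the sample labels are read here as 1 mouse each. Whether these are separate animals is not stated, and a p-value then covers only the spread among these samples, part of which may be technical. The miR-185-inh arrays share one slide and scan and the ctrl-inh arrays another, so the effect of a slide or its scan and that of the treatment cannot be told apart. On a slide the arrays sit in 2 rows of 4. A row has its own mice, so row and mouse cannot be told apart either. Between 58.7% and 74.8% of the 59305 non-control spots of an array were well above background, and any pair of arrays correlated with r between 0.984 and 0.996. Alb of hepatocytes gave spots well above background on every array, as did Adgre1, Csf1r and Clec4f of resident macrophages. Values are log2 signal relative to the 75th percentile of the same array. They compare arrays for 1 probe and not genes with each other. In whole liver, fewer cells of a type and less RNA per cell cannot be told apart.

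The stem-loop that carries the inhibitor's target is shown first. RefSeq places the mouse miR-185 hairpin at chr16:18327401-18327465 on the minus strand of GRCm38.p6. The capitals mark the mature 3p arm, and the labels do not say against which arm the antisense was directed.
miR-185 hairpin: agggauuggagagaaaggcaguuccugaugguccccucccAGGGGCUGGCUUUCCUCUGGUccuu

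The promoters of Gpnmb, Mmp12, Trem2 and Itgax follow. They are shown because their windows hold the match marked below, so the match decided which genes are printed. Each window runs from 250 bases before to 50 bases after a RefSeq start in GRCm38.p6, on the plus strand, and the capitals mark a match to TGANTCA, a pattern looser than the AP-1 site, since it takes any base at its centre.
Gpnmb, chr6:49036268-49036567: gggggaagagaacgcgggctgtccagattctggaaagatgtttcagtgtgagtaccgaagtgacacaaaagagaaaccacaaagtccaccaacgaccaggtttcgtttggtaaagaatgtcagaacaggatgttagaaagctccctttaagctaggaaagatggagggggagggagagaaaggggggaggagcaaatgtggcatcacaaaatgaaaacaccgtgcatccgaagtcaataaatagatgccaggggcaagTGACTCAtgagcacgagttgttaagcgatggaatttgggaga
Mmp12, chr9:7347124-7347423: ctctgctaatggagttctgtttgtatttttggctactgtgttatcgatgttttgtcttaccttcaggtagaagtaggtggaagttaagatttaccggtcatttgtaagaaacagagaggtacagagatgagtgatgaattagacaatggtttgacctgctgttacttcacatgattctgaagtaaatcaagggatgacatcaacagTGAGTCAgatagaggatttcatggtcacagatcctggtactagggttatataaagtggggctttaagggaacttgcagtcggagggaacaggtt
Trem2, chr17:48346151-48346450: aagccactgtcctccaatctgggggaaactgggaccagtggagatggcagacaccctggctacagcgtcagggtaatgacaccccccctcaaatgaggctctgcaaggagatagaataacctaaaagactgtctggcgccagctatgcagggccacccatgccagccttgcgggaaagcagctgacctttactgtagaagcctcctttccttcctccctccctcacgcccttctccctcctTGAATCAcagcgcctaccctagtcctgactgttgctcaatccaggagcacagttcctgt
Itgax, chr7:128129300-128129599: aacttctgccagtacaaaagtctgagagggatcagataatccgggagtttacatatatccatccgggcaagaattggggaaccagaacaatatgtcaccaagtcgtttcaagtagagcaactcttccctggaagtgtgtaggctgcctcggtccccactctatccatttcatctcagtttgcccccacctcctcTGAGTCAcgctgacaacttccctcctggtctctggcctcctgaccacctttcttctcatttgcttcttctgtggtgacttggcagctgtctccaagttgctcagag

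RefSeq windows were matched for 8 of the 10 genes, with 10 windows because some genes have several starts. TGANTCA, which reads the same on both strands, was found in 4 of these 10 windows, those printed, against 7.81% of 32851 mouse windows of the same length. The AP-1 site proper, TGAGTCA on either strand, is contained in that pattern and lay in 3 of the 10 windows, those of Gpnmb, Mmp12 and Itgax, against 5.2% of all windows, while the Trem2 match has another centre base. The match begins 9 bases after the start in Gpnmb, 9 before it in Trem2, 44 before it in Mmp12 and 56 before it in Itgax. The windows of Cd36 and Cd63, genes that also varied with Gpnmb in part, hold no such match, nor does a further window of Mmp12. GAGGAAG, a PU.1 site of myeloid genes, searched on both strands, lay in 4 of the 10 windows, against 13.6% of all windows. These were windows of Trem2, Mmp12, Spp1 and Cd63, for Mmp12 the further window and not the one printed. CACGTG, the E-box of MITF and TFE factors and of several others, lay in none of the 10 windows and in 7.15% of all. The letters of these last motifs and of the AP-1 pattern do not contain each other. The matches describe letters in a window, with the motifs chosen when results of these arrays were known.

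Trem2, the lipid receptor, ran from -0.65 through a median of 0.09 to 1.42 in miR-185-inh livers and from -0.18 through 0.24 to 1.56 in ctrl-inh livers. One liver stood high in each group, miR-185-inh mouse 9 and ctrl-inh mouse 1, and the groups overlapped over most of their range. The means were 0.23 ± 0.63 and 0.37 ± 0.56 (SD, n = 8 each), a difference of -0.15 (SE 0.27, 95% interval -0.73 to 0.43). By limma over all 25790 features the adjusted p was 0.821, and a two-sided exact permutation test, over all 12870 ways to divide 16 samples into 8 and 8, gave p = 0.633.

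Among the genes of lipid uptake and handling, none of the differences passed the test. Lpl, lipoprotein lipase, which frees fatty acids from triglyceride-rich lipoproteins, came closest. It ran from 2.31 through a median of 2.94 to 3.23 in miR-185-inh livers and from 2.64 through 3.02 to 3.39 in ctrl-inh livers. Of the 8 miR-185-inh livers 6 lay below the ctrl-inh mean, yet the groups overlapped. The Lpl difference was -0.26 (SE 0.15, 95% interval -0.58 to 0.05), with a limma adjusted p of 0.342 and an exact permutation p of 0.117. The other Lpl probe, detected on each of the 16 arrays, gave -0.24.

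Cd36, a fatty acid translocase and scavenger receptor for oxidised lipoproteins, ran from 1.099 through a median of 1.79 to 2.62 in miR-185-inh livers and from 1.27 through 2.13 to 2.71 in ctrl-inh livers. The ranges were nearly the same, and the difference was -0.09 (SE 0.23, 95% interval -0.58 to 0.40, limma adjusted p = 0.876). Fabp5, which carries fatty acids inside the cell, ran from 2.35 through 3.37 to 3.99 in miR-185-inh livers and from 2.73 through 3.44 to 4.22 in ctrl-inh livers. Its difference was also -0.09 (SE 0.22, 95% interval -0.56 to 0.38, limma adjusted p = 0.871).

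Gpnmb, a transmembrane glycoprotein that accumulates in lipid-laden and lysosome-stressed macrophages, spread far wider. Its level in the miR-185-inh livers was -3.41 in mouse 1, -3.33 in mouse 3, -4.46 in mouse 6, -4.43 in mouse 7, -4.06 in mouse 8, -1.67 in mouse 9, -4.75 in mouse 10 and -2.77 in mouse 12. In the ctrl-inh livers it was -0.16 in mouse 1, -2.44 in mouse 2, -3.04 in mouse 3, -2.70 in mouse 4, -3.75 in mouse 8, -5.19 in mouse 9, -5.14 in mouse 11 and -4.48 in mouse 12. The ctrl-inh livers thus reached both further up and further down than the miR-185-inh livers. Between the highest liver and the lowest liver with a spot well above background the signal differed 8.49-fold in the miR-185-inh group and 31.5-fold in the ctrl-inh group. The spot of ctrl-inh mouse 9 was the only one of the 16 not well above background. The group means were -3.61 ± 1.03 and -3.36 ± 1.67 (SD, n = 8 each), a difference of -0.25 (SE 0.63, 95% interval -1.58 to 1.09, limma adjusted p = 0.871, exact permutation p = 0.741). An interval of that width leaves room for a large difference in either direction.

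Mmp12, the macrophage elastase that cleaves elastin and other matrix proteins, varied in the same way. It ran from -5.51 through a median of -4.56 to -2.12 in miR-185-inh livers and from -6.89 through -3.81 to -1.04 in ctrl-inh livers, again with miR-185-inh mouse 9 and ctrl-inh mouse 1 at the top. The spot was well above background on 6 of the 8 miR-185-inh and 5 of the 8 ctrl-inh arrays, so the lowest values carry little information on order. The difference was -0.07 (SE 0.76, 95% interval -1.67 to 1.54, limma adjusted p = 0.975). A further Mmp12 probe was well above background on none of the arrays. Spp1, which encodes the secreted glycoprotein osteopontin, ran from 2.07 through 2.26 to 2.75 in miR-185-inh livers and from 1.98 through 2.47 to 2.96 in ctrl-inh livers. Of the miR-185-inh livers 7 of 8 lay below the ctrl-inh mean, and the difference was -0.16 (SE 0.12, 95% interval -0.42 to 0.10, limma adjusted p = 0.499).

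Itgax, the integrin chain CD11c of dendritic cells and of macrophages in fatty tissue, ran from -3.26 through a median of -2.75 to -1.91 in miR-185-inh livers and from -3.13 through -2.36 to -1.17 in ctrl-inh livers. Its difference was the largest of the 10 in size, -0.32 (SE 0.23, 95% interval -0.80 to 0.17, limma adjusted p = 0.481). The tetraspanins, membrane organisers of late endosomes (Cd63) and of the cell surface (Cd9), differed in sign. Cd63 ran from 0.53 through 0.94 to 1.53 in miR-185-inh livers and from 0.60 through 0.81 to 1.39 in ctrl-inh livers, with 1 miR-185-inh liver above every ctrl-inh liver and a difference of 0.12 (SE 0.13, 95% interval -0.16 to 0.39, limma adjusted p = 0.667). Cd9 ran from 2.62 through 2.97 to 3.19 in miR-185-inh livers and from 2.80 through 3.09 to 3.28 in ctrl-inh livers, a difference of -0.16 (SE 0.09, 95% interval -0.35 to 0.04, limma adjusted p = 0.363).

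**Figure D1:**
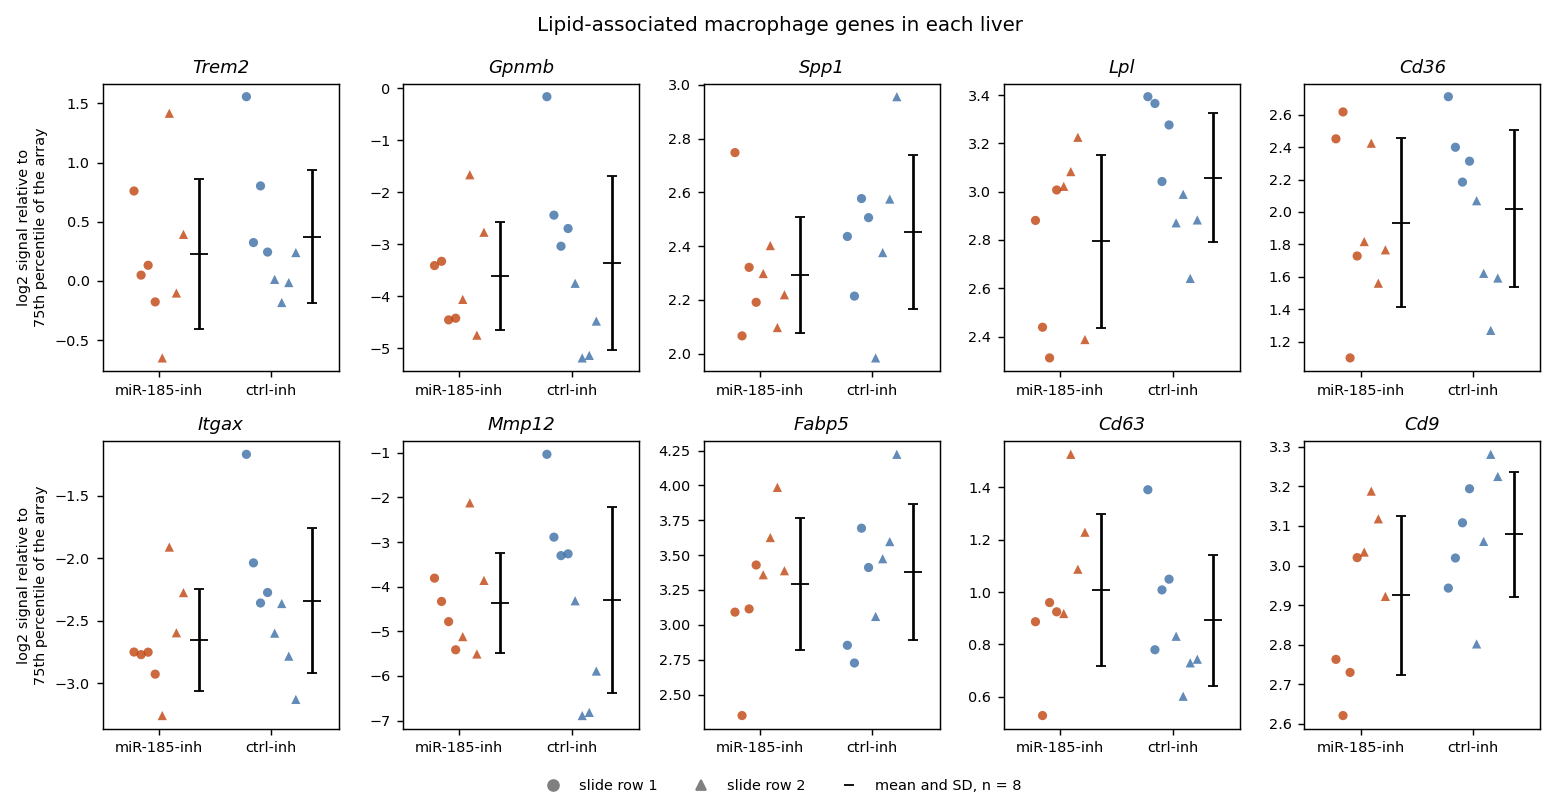
Log2 signal relative to the 75th percentile of the array (vertical axes, one scale per gene) for the 10 genes in each liver, miR-185-inh left and ctrl-inh right, circles for slide row 1, triangles for slide row 2, bars for mean and SD (n = 8). The groups overlap for every gene, and 1 ctrl-inh liver stands at -0.16 for Gpnmb with the next at -2.44.

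Read as a list, 0 of the 10 genes were called between the groups at a limma adjusted p under 0.05, where 4.71% of all features were called. By direction 1.24% of features were called higher under miR-185-inh and 3.47% lower. At an unadjusted p under 0.05 the count was also 0, where 20.2% of all features passed. Of the 10 differences 9 lay below zero, with a median of -0.15. Over all features the median was -0.03, with 14965 of 25790 below zero. The sign of Mmp12 turned under quantile normalization, to 0.06.

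Most of the spread lay within the groups. Ranked by SD within groups among all features, Mmp12 stood at percentile 99.98, Gpnmb at 99.93, Trem2 at 96.4, Cd36 at 93.5, Itgax at 93.5 and Fabp5 at 92.5. The Mmp12 spot was well above background on only 11 of 16 arrays, so its rank rests in part on dim spots. Lpl, Cd63 and Spp1 stood at 76.4, 67.4 and 63.4, and Cd9 at 39.8. A single liver per group led several genes at once. Mouse 9 was the highest miR-185-inh liver for Trem2, Gpnmb, Itgax, Mmp12, Cd63 and Cd9, and mouse 1 was the highest ctrl-inh liver for Trem2, Gpnmb, Itgax, Mmp12, Cd63, Lpl and Cd36.

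Slide rows split the ctrl-inh livers for the same genes. Gpnmb averaged -4.64 in row 2 (mice 8, 9, 11 and 12) and -2.09 in row 1 (mice 1, 2, 3 and 4), a difference of -2.56. Every row 1 liver lay above every row 2 liver for 6 of the 10 genes, Trem2, Gpnmb, Lpl, Cd36, Itgax and Mmp12. That pattern was seen in 5.3% of all features with a value on every ctrl-inh array. For Trem2 and Itgax the rows all but met. The lowest row 1 and highest row 2 livers were at 0.244 and 0.240 for Trem2 and at -2.358 and -2.362 for Itgax. By limma within the ctrl-inh group, a comparison added after the data were seen, 2 of the 10 were called lower in row 2, where 4.65% of all features were called and 2.45% called lower. These were Mmp12 with -3.36 (limma adjusted p = 0.0356) and Cd36 with -0.76 (limma adjusted p = 0.0482). Gpnmb had an adjusted p of 0.0556 and Lpl, at -0.42, one of 0.0596. At an unadjusted p under 0.05 the counts were 7 of 10 and 26.8% of all features. Both calls held without mouse 8 (limma adjusted p = 0.0257 for Mmp12 and 0.0299 for Cd36) and were lost when any of the other 7 ctrl-inh mice was left out, with limma adjusted p from 0.0596 to 0.0914 for Mmp12 and from 0.0715 to 0.112 for Cd36, all with the same sign. Of the Mmp12 spots in row 2, those of mice 9, 11 and 12 were not well above background, and with normexp background correction the Mmp12 difference was -1.75. Row 2 of that slide also had fewer spots well above background, 58.7% to 64.2% against 68.6% to 74.8% in row 1, and the part of this in the result was not tested. The median row difference was -0.57 over the 10 genes, -0.76 over 6 sinusoidal endothelial markers, -0.39 over 10 Kupffer cell markers and 0.09 over all features. The part of these cells was not tested.

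No such split was called in the miR-185-inh livers. There Gpnmb averaged -3.31 in row 2 and -3.91 in row 1, a difference of 0.59, and 0 of the 10 genes passed, as did 0% of all features. At an unadjusted p under 0.05 the counts were 3 of 10 and 11.6% of all features. The contrast of the groups therefore had opposite signs in the rows. Within row 1 all 10 differences lay below zero, with -1.82 for Gpnmb, -1.96 for Mmp12, -0.84 for Itgax and -0.61 for Lpl. Within row 2, 8 of 10 lay above zero, with 1.33 for Gpnmb, 1.83 for Mmp12 and 0.46 for Cd63. None passed the limma adjusted p in either row, where 0% and 1.81% of all features did, and 5 of 10 in row 1 and 1 of 10 in row 2 had an unadjusted p under 0.05, against 17.9% and 21.2% of all features. The difference between the rows was tested as an interaction and also called 0 of the 10, where 0.372% of all features were called. It was 3.79 for Mmp12 (limma adjusted p = 0.110), 3.15 for Gpnmb (limma adjusted p = 0.133) and 0.69 for Cd63 (limma adjusted p = 0.127). At an unadjusted p under 0.05 it counted 5 of 10, against 14.8% of all features.

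**Figure D2:**
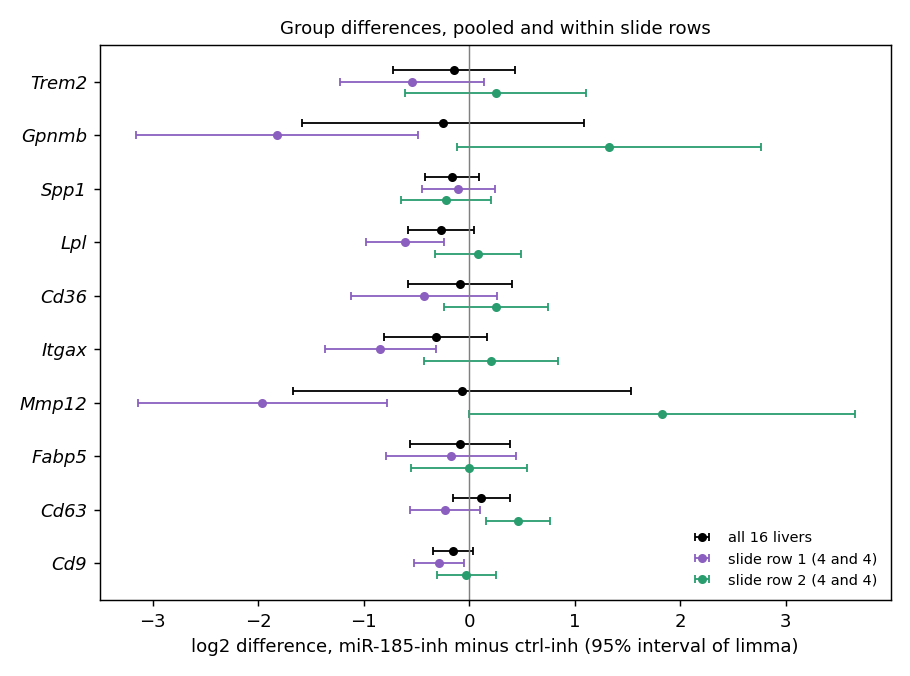
Log2 difference, miR-185-inh minus ctrl-inh, with limma's 95% interval (horizontal axis) for each gene (vertical axis), over all 16 livers in black, slide row 1 in purple and slide row 2 in green (4 and 4 livers each). Gpnmb and Mmp12 have the widest intervals and lie at -1.82 and -1.96 in row 1 and at 1.33 and 1.83 in row 2.

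Which of the genes varied together was asked within each group of 8, so that the groups' means play no part, over 45 pairs a group and 90 in all. In miR-185-inh livers 35 of 45 pairs had a positive Pearson r, with a median of 0.29, and in ctrl-inh livers 25 of 45, with a median of 0.62. By two-sided exact permutation over all 40320 pairings with Benjamini-Hochberg adjustment over the 90 pairs, 4 pairs passed in miR-185-inh and 11 in ctrl-inh livers. By Spearman's rho, 0 and 6 passed. Before adjustment 12 and 22 had p under 0.05. The difference between the groups in these correlations was not tested.

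By Pearson's r over all 8 livers, Gpnmb and Mmp12 gave the closest relation in both groups. By rho in miR-185-inh livers Trem2 with Mmp12 and Fabp5 with Cd9 stood higher, at 0.881 each, and without the 2 farthest livers several pairs did, with Lpl and Fabp5 the highest at 0.988. In miR-185-inh livers r was 0.959 and rho 0.857 (n = 8, exact permutation p = 0.000943 and 0.0107, adjusted p = 0.0183 and 0.0689), and 0.864 without the 2 livers farthest from the Gpnmb median. In ctrl-inh livers r was 0.976 and rho 1.0 (n = 8, exact permutation p = 2.48e-05, the smallest that the pairings can give, and 4.96e-05, adjusted p = 0.00223 for r), and 0.988 without the 2 farthest. That rho rests in part on dim spots, since Mmp12 of ctrl-inh mice 9, 11 and 12 and Gpnmb of mouse 9 were not well above background. Over the 11 arrays on which both spots were well above background, with group means removed, r was 0.968 against 0.970 over all 16, a comparison added after the data were seen.

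The other genes of this cluster joined it to differing degrees. In miR-185-inh livers Trem2 varied with Mmp12 (r = 0.917 and rho = 0.881, exact permutation adjusted p = 0.0290 and 0.0652) and with Itgax (r = 0.853 and rho = 0.810, exact permutation adjusted p = 0.0497 and 0.0852). Trem2 with Itgax had r = 0.322 without the 2 farthest livers and so rests on them. Trem2 and Gpnmb had r = 0.805 there and rho = 0.619 (exact permutation adjusted p = 0.0667 and 0.246).

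In ctrl-inh livers the called pairs bound Gpnmb to Mmp12, Cd36, Cd63, Trem2, Itgax and Lpl, Mmp12 to Cd36, Cd63 and Trem2, Trem2 to Cd63, and Lpl to Cd36. Cd36, the fatty acid receptor, had r = 0.941 and rho = 0.929 with Gpnmb and r = 0.973 and rho = 0.929 with Mmp12 (exact permutation adjusted p = 0.00670 for each r). Trem2 and Gpnmb had r = 0.881 and rho = 0.905 (exact permutation adjusted p = 0.0400 for r and 0.0513 for rho). Of the 11 pairs called by r, 4 also passed by rho: Gpnmb with Mmp12, Gpnmb with Cd36, Mmp12 with Cd36 and Lpl with Cd36. The 11 coefficients ran from 0.821 to 0.976, and without the 2 farthest livers from 0.586 for Trem2 with Cd63 to 0.988 for Gpnmb with Mmp12. In miR-185-inh livers Gpnmb with Cd36 had r = 0.653, Gpnmb with Cd63 0.522 and Gpnmb with Lpl -0.085, none of which passed.

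These relations share the slide rows. With the mean of each row removed in each group, and pairings kept within rows (576 of them), 0 of the 90 pairs passed, 12 had an unadjusted exact permutation p under 0.05, and the lowest adjusted p was 0.130. The smallest p that these pairings can give is 0.00174, which Gpnmb with Mmp12 had in ctrl-inh livers. Adjusted over the 90 pairs it became 0.130, so the count of 0 cannot tell whether the relations remain without the rows. With row means removed the coefficient of Gpnmb with Mmp12 was 0.961 in miR-185-inh and 0.930 in ctrl-inh livers. That of Trem2 with Gpnmb was 0.827 and 0.767.

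Fabp5, Cd9 and Spp1 stood outside the cluster. Fabp5 and Cd9 varied together in miR-185-inh livers (r = 0.887 and rho = 0.881, exact permutation adjusted p = 0.0183 and 0.0652, r = 0.965 without the 2 farthest) and had r = 0.697 in ctrl-inh livers (exact permutation adjusted p = 0.138). Spp1 had r = 0.818 with Fabp5 and 0.809 with Cd9 in ctrl-inh livers, short of the threshold (exact permutation adjusted p = 0.0667 each). Against Gpnmb in ctrl-inh livers, Fabp5 had r = -0.620, Cd9 -0.425 and Spp1 -0.196, none of which passed. In miR-185-inh livers Fabp5 had -0.103 with Gpnmb, Cd9 0.145 and Spp1 0.294. The division was less clear there. Cd63 had r = 0.744 with Fabp5 and 0.755 with Cd9, Lpl 0.779 with Cd9 and Spp1 0.522 with Trem2, none of which passed.

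**Figure D3:**
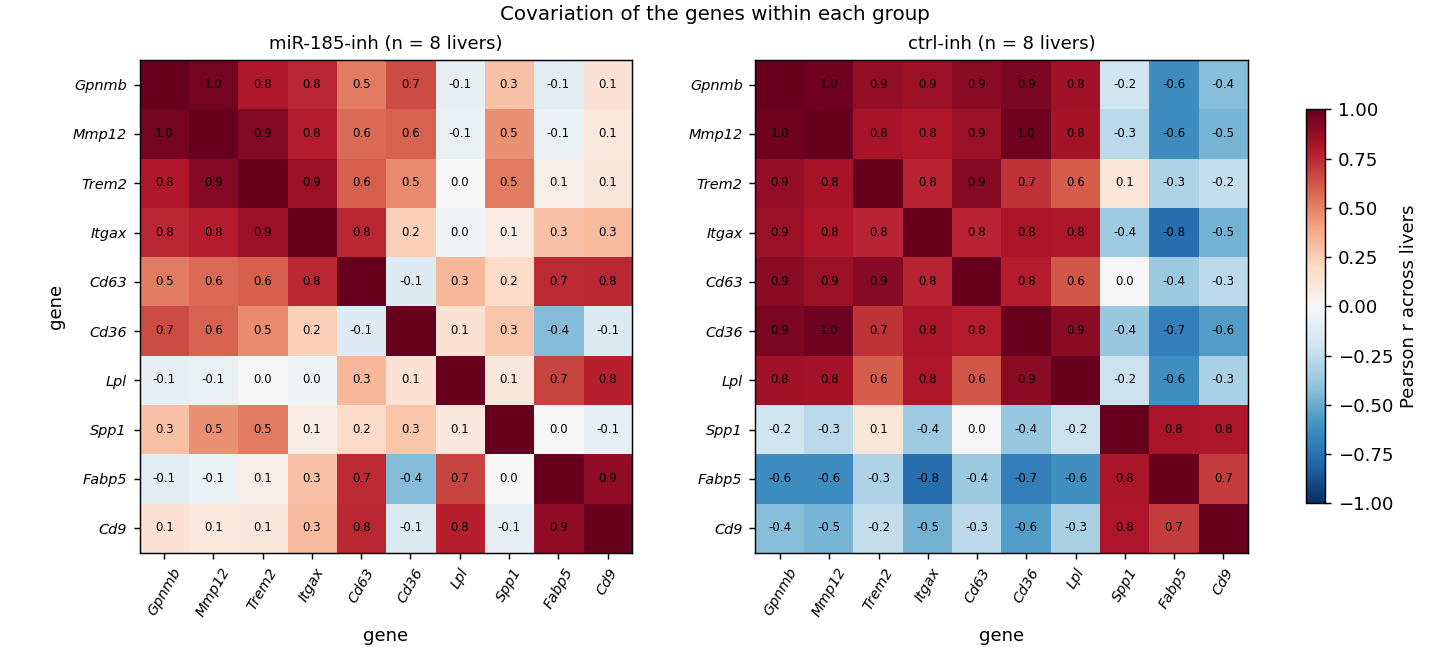
Pearson r across 8 livers (colour and printed value, 1 decimal) for each pair of the 10 genes on both axes, in miR-185-inh livers on the left and ctrl-inh livers on the right. Gpnmb, Mmp12, Trem2 and Itgax form a positive block in both panels, while Fabp5, Cd9 and Spp1 have low or negative coefficients with Gpnmb in ctrl-inh livers.

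**Figure D4:**
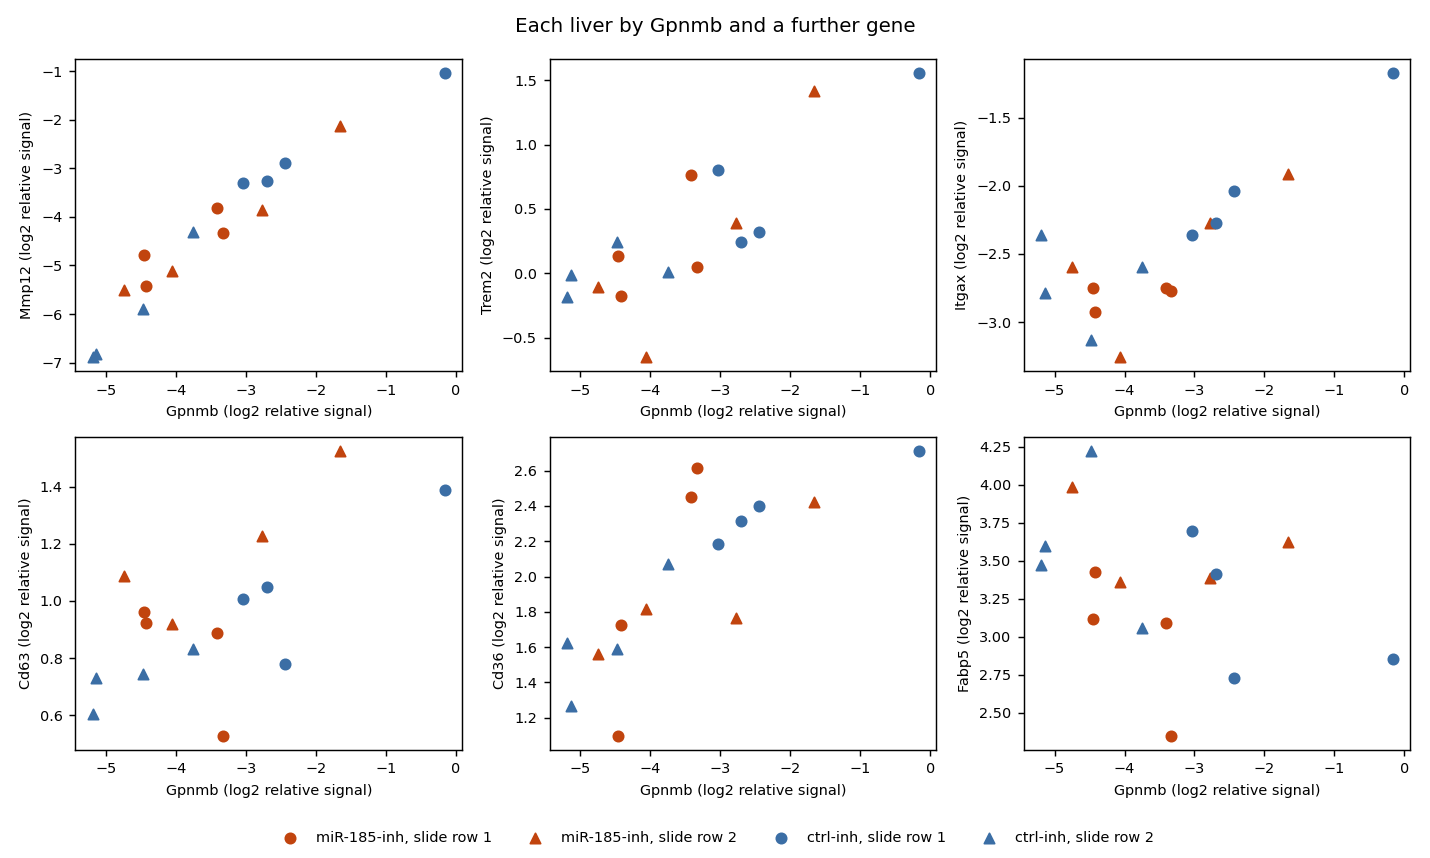
Each liver by its Gpnmb level (horizontal axes) and the level of Mmp12, Trem2, Itgax, Cd63, Cd36 or Fabp5 (vertical axes), all in log2 signal relative to the array's 75th percentile, with groups by colour and slide rows by symbol. The 16 livers fall near one line for Mmp12 (r = 0.970 with group means removed), while Trem2 and Itgax lean on the 2 livers at the upper right.

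Seen from Gpnmb, over 16 arrays with group means removed, Mmp12 had the highest coefficient of all 15154 named genes with a value on every array, at 0.970, and kept that rank at 0.956 without ctrl-inh mouse 1 and miR-185-inh mouse 9, the farthest from the median. Itgax ranked 31 with 0.830, Trem2 48 with 0.814, Cd36 74 with 0.797 and Cd63 260 with 0.711. Without those 2 livers Cd36 ranked 87 with 0.762, while Itgax and Trem2 ranked 620 and 658 with 0.571 and 0.560, and Cd63 had 0.346. Lpl had 0.392, Spp1 -0.040, Cd9 -0.163 and Fabp5 -0.415. These coefficients share arrays and slide rows and are a description. Other genes among the most alike to Gpnmb were Gpr137b-ps with 0.94, Ap1s2 with 0.91 and Casp4 with 0.90. Among those most alike to Trem2 were Pdzd4 with 0.90, Pamr1 with 0.89, Matn2 with 0.86 and Glis2 with 0.85. Cd36 was most alike to Colec10 with 0.91 and to Adgrl1 and Pcdhb7 with 0.90 each, and Lpl to Cd300ld, Ebi3 and Ikzf1 with 0.94 each. The Pcdhb7 spot was well above background on only 4 arrays of each group, so its coefficient rests in part on dim spots.

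The wider program was set beside Gpnmb in the same way. Of 23 further genes of lipid-associated or scar-associated macrophages 4 had r over 0.7 with Gpnmb (17.4%), against 1.98% of all named genes, with a median of 0.38 against -0.11. Named after their values were seen, these were Fabp4 with 0.84, Ctsk, the cathepsin of bone and matrix breakdown, with 0.83, Capg with 0.79 and Vat1 with 0.71. Fabp4 is also on the list of adipocyte genes, where it was the only 1 of 4 over 0.7 and the median was -0.10. None of the 23 had r over 0.7 within both groups, where 0.356% of all named genes did. Within miR-185-inh livers Fabp4 had 0.59, Ctsk 0.64, Capg 0.42 and Vat1 0.35, and within ctrl-inh livers 0.97, 0.89, 0.96 and 0.93. Without the 2 farthest livers the median of the 23 was 0.11. None of the 12 genes of TREM2 signalling passed 0.7, and their median was 0.34, or 0.02 without those livers. Of 12 recruiting and remodelling genes 2 did, Timp1, an inhibitor of matrix metalloproteinases, with 0.90 and Ccl2, a monocyte chemokine, with 0.78. Timp1 was over 0.7 within both groups, at 0.753 in miR-185-inh and 0.967 in ctrl-inh livers. Genes of other cells are given beside this. Their median was 0.65 over 6 endothelial genes (Lyve1 0.81), 0.56 over 6 stellate cell genes (Col3a1 0.77), 0.55 over 7 myeloid genes (Ms4a7 0.84, Ptprc 0.74), 0.37 over 8 dendritic cell genes (Flt3 0.75, Clec9a 0.71), 0.25 over 10 Kupffer cell genes and -0.18 over 10 neutrophil genes. Without the 2 farthest livers these medians were 0.69 for endothelial, 0.52 for stellate cell, 0.25 for myeloid, 0.21 for dendritic cell, 0.09 for Kupffer cell and -0.33 for neutrophil genes. Col3a1 was also over 0.7 within both groups, at 0.754 in miR-185-inh and 0.810 in ctrl-inh livers. None of the endothelial, myeloid, dendritic cell, Kupffer cell or neutrophil genes was. The 6 endothelial genes ran from 0.143 to 0.494 within miR-185-inh and from 0.802 to 0.928 within ctrl-inh livers. What part other cells had in the covariation was not tested.

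**Figure D5:**
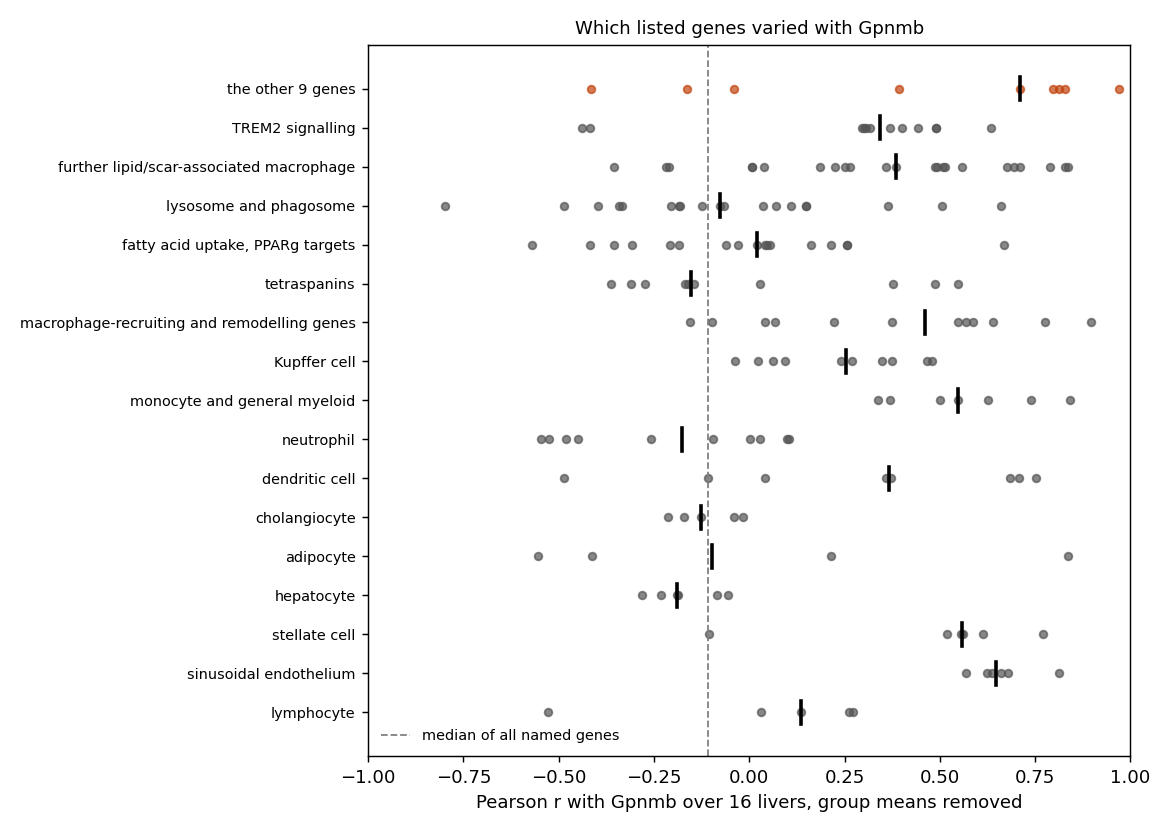
Pearson r with Gpnmb over 16 livers, group means removed (horizontal axis), for each gene of each list (rows), with a black bar at the list's median and a dashed line at the median of all named genes (-0.11). Among the other 9 genes the values run from -0.42 for Fabp5 to 0.97 for Mmp12.

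Markers of single cell types gave 60 relations with the 10 genes (Clec4f of Kupffer cells, Krt19 of bile duct cells, Cidec of lipid droplets). One passed, in which Cd9 was low where Cidec was high among miR-185-inh livers (r = -0.896 and rho = -0.929, n = 8, exact permutation adjusted p = 0.0164 and 0.134, r = -0.890 without the 2 farthest). Fabp5 with Cidec had a like coefficient there, -0.899, and did not pass (exact permutation adjusted p = 0.133). Adgre1, the macrophage antigen F4/80, was added after the data were seen, with 20 relations. It varied with Lpl in both groups, r = 0.885 in miR-185-inh and 0.909 in ctrl-inh livers (rho = 0.905 and 0.976, exact permutation adjusted p = 0.0263 and 0.0324). With Gpnmb it had r = 0.079 in miR-185-inh and 0.850 in ctrl-inh livers (rho = -0.095 and 0.881, exact permutation adjusted p = 0.957 and 0.0324). In ctrl-inh livers Adgre1 also passed by rho, though not by r, with Cd36, Mmp12, Trem2 and Itgax. Their rho was 0.905, 0.881, 0.857 and 0.857 (exact permutation adjusted p = 0.0290, 0.0290, 0.0306 and 0.0306). None of these passed in miR-185-inh livers, and the difference between groups was not tested.

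Between the groups, 3 of 162 measured genes of the 16 lists, the 10 genes aside, had a limma adjusted p under 0.05 (1.85%, against 4.71% of all features) and 17 an unadjusted p under 0.05 (10.5%, against 20.2%). Of 12 measured genes of TREM2 signalling 0 were called, 10 lay below zero and the median was -0.08. Apoe, the gene knocked out in all these mice, is counted among the 12, at 0.28 (limma adjusted p = 0.311). The smallest p was that of Plcg2, the phospholipase downstream of SYK, with -0.28 (limma adjusted p = 0.178). Of 24 further macrophage genes of this type 0 were called, 18 lay below zero and the median was -0.05, with Ctsb, cathepsin B, at -0.13 (limma adjusted p = 0.258). The 18 genes of fatty acid uptake and the PPARg response had 0 called and 12 above zero, with Pnpla2, the triglyceride lipase ATGL, at 0.22 (limma adjusted p = 0.120). The 10 other tetraspanins had 0 called and 7 above zero, with Tspan3 at 0.24 (limma adjusted p = 0.211), and the 12 recruiting and remodelling genes 0 called and 9 below zero, with Mmp8, the neutrophil collagenase, at -0.82 (limma adjusted p = 0.0927).

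Of 19 measured lysosome and phagosome genes 1 was called (5.26%, near the 4.71% of all features), and the list's median was -0.02. This was Mitf, a transcription factor of lysosomal genes and a known activator of Gpnmb in pigment cells. Its brightest probe averaged 0.37 ± 0.14 in miR-185-inh and 0.70 ± 0.17 in ctrl-inh livers (SD, n = 8 each), a difference of -0.33 (SE 0.08, limma adjusted p = 0.0301). The other Mitf probe, of the same accession and well above background on all 16 arrays, went the other way, with means of -1.41 and -1.65 and a difference of 0.24. With the mean of the probes the difference was -0.04 (limma adjusted p = 0.900), so the call rests on 1 probe and no direction is given for the gene. The call was lost in 9 of 30 alternative settings, also with normexp (limma adjusted p = 0.0814), within row 1 (0.128) and row 2 (0.162), with the mouse number as a block (0.361), and on leaving out mouse 6 of miR-185-inh, or any of mice 8, 9 and 11 of ctrl-inh (0.0527 to 0.0593). In the block fit only samples whose number occurs in both groups inform the difference.

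Markers of the other cells a liver holds are given beside this. All 10 Kupffer cell genes lay below zero and 0 were called, with a median of -0.15 and Clec4f at -0.16 (limma adjusted p = 0.286). Of 8 monocyte and myeloid genes 6 lay below zero and 0 were called (Ptprc -0.48, limma adjusted p = 0.0871), and of 8 dendritic cell genes also 6 and 0 (Xcr1 -0.38, limma adjusted p = 0.0584). All 10 neutrophil genes lay below zero with a median of -0.98, and 2 were called lower, where 3.47% of all features were. One was Ltf, lactoferrin, at -1.97 (limma adjusted p = 0.0241). Its spots were well above background on 3 of 8 miR-185-inh and 8 of 8 ctrl-inh arrays, so the size of that difference rests in part on dim spots. The other was Ngp at -1.22 (limma adjusted p = 0.0428), a call lost in 20 of 30 settings. The 5 cholangiocyte, 4 adipocyte, 6 hepatocyte, 6 stellate cell, 6 endothelial and 5 lymphocyte genes had 0 called, with Muc1 at -0.45 (limma adjusted p = 0.0885), Serpina1a at -0.22, Cfd at -0.44, Reln at 0.27, Fcgr2b at 0.18 and Nkg7 at -0.24. The mean level of the Kupffer cell list, centred per gene, ran from -0.68 to 0.29 in miR-185-inh and from -0.26 to 0.38 in ctrl-inh livers, that of the myeloid list from -0.56 to 0.39 and from -0.28 to 0.64, and that of the neutrophil list from -1.46 to 0.18 and from -0.69 to 1.50. Their part in the levels of the 10 genes was not tested.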

How the data were processed

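Scanner files of 16 arrays were deposited, 1 array a sample. Per the file headers, the intensity of each spot was background-subtracted and spatially detrended by Feature Extraction 11.5.1.1, while the submitters' processing notes give version 9.1 of it. The authors' value table, used as an alternative, is on a log2 scale: each column equalled log2 of the processed intensity minus 1 constant (SD of the difference at most 0.0069), with column medians from -1.30 to -1.22. No source used here gives the origin of that constant.

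From log2 intensity the 75th percentile of all non-control spots of the array was subtracted. Outlier spots were left out and spots of a probe averaged. A probe needed spots well above background on 8 or more of 16 arrays, and the brightest probe stood for its gene. Of 55681 probes 26762 were named through RefSeq accessions of GRCm38, giving 20284 symbols. The array grid is on mm9, so no probe coordinates are given. Tests used limma 3.58.1 in R 4.3.3, two-sided, Benjamini-Hochberg over all features, threshold 0.05, and exact permutation in Python 3.11.15 with numpy 2.4.6. The limma code was tested on simulated data.

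The members, gene lists and tests were chosen with earlier results of these data known. The text names the 10 genes, of each list the called genes or else the one with the smallest p, the markers, and the 5 (Trem2, Gpnmb) or 3 (Cd36, Lpl) genes most alike, of which 1 is not reported here. Cd68, planned as a marker, was not matched, and Adgre1 was added. Normexp, planned on the mean spot signal, was run on the median signal. The number of arrays limits the precision.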

Additional observations from a re-analysis of the deposited data

How the results depend on the processing

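The number of arrays, and for Mmp12 the 5 spots not well above background, limit what these data can show. In each setting run, 0 of the 10 genes were called between the groups, with adjusted p of at least 0.101. The signs of small differences were not stable, and the causes were not tested. Mmp12 turned to 0.062 under quantile normalization. Within row 1 Cd63 turned to -0.23. Within row 2 Trem2 turned to 0.25, Gpnmb to 1.33, Lpl to 0.083, Cd36 to 0.25, Itgax to 0.21, Mmp12 to 1.83 and Fabp5 to 0.0015. Without ctrl-inh mouse 1 Trem2 turned to 0.024, Gpnmb to 0.21, Cd36 to 0.012 and Mmp12 to 0.40. Over all single mice left out, Trem2 ran from -0.32 to 0.024, Gpnmb from -0.52 to 0.21, Cd36 from -0.19 to 0.032 (above zero without mouse 1 of ctrl-inh or mouse 6 of miR-185-inh), Mmp12 from -0.44 to 0.40 (above zero without mouse 1, 2, 3 or 4 of ctrl-inh, or 7, 8 or 10 of miR-185-inh) and Fabp5 from -0.19 to 0.048 (above zero without mouse 12 of ctrl-inh or mouse 3 of miR-185-inh).

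Over all features 1215 were called, 0 within row 1, 466 within row 2, and 735 to 1582 without 1 mouse. The interaction with slide row called 96, against 32 with normexp, 170 with quantile normalization, 415 with the percentile over detected probes, 2366 without a filter, 42 with the mean of probes and 5 to 449 without 1 mouse. Calls were 320 higher and 895 lower, 555 and 603 with normexp, and 396 and 457 with quantile normalization.

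With the mouse number as a block 0 features were called. Only samples whose number occurs in both groups, 5 a group, inform the difference in that fit. The other arrays drop out of it, so its count of 0 is not on a par with those over 16 livers. In those samples Gpnmb turned to 0.28, Cd36 to 0.18 and Mmp12 to 0.44. Whether the 5 shared numbers mark a pair or a batch is not stated. Deviations from group means correlated at 0.095, 0.081, -0.00010, 0.11 and -0.13 between samples of the same number, which cannot settle it.

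Of the 90 pairs of genes 15 to 21 passed in the value settings and 0 with row means removed, where the 576 pairings left little room to pass. Within ctrl-inh, row 2 minus row 1 turned to -0.050, -0.073 and -0.020 for Cd9 under normexp, quantile and detected-probe scaling, and to -0.036 and -0.0072 for Spp1 under the last 2. Without 1 ctrl-inh mouse it ran from -0.037 to 0.12 for Cd9 and from -0.12 to 0.20 for Spp1. There 4 of the 10 genes were called under normexp and without a filter, with Gpnmb (limma adjusted p = 0.0463 and 0.0307) and Lpl (0.0366 and 0.0380) beside Mmp12 and Cd36.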
